A study of Mus musculus with 12 samples.

Results

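The comparison described here is that of liver transcriptomes of ICR mice on the CDAHFD, a high-fat diet made with L-amino acids and deficient in choline, with those of ICR mice on a normal diet (ND). It uses 6 of the 12 liver RNA-seq libraries of the series, chosen by their labels: 3 from CDAHFD-fed ICR mice and 3 from ND-fed ICR mice. The study induced metabolic dysfunction-associated steatohepatitis (MASH), a fatty liver disease with inflammation and fibrosis, in inbred and outbred mice and asked how far outbred ICR mice respond to this diet. Wild-type males were 8 weeks old at the start and ate either diet for 10 weeks. The CDAHFD supplied 60% of its energy as fat, held 0.1% methionine and had no added choline. ICR is an outbred stock, so the 3 mice of a group differ in genotype as well as in individual history, and any allele that happens to differ between the groups cannot be told apart from the diet. The diets also differ in fat, methionine, choline and amino acid source at the same time, and their separate effects cannot be told apart.

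Choline is built into phosphatidylcholine, the phospholipid that coats the lipoproteins with which hepatocytes export triglyceride. The liver can also make phosphatidylcholine by methylating phosphatidylethanolamine with S-adenosylmethionine, which is made from methionine. A diet poor in both nutrients limits both routes, and in mice such diets are known for fat accumulation in hepatocytes, cell death, macrophage recruitment and scarring by activated stellate cells, the vitamin A-storing pericytes of the liver.

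The libraries held between 23363460 and 30826629 counts, and the CDAHFD libraries were the deeper ones. Values are given as CPM (counts per 1000000) on library sizes scaled with edgeR's trimmed mean of M values (TMM), for replicates 1, 2 and 3 in that order. A log2 fold change is CDAHFD minus ND with its standard error (SE). The verbs rose and fell are kept for genes at an adjusted p under 0.05 in edgeR's quasi-likelihood test. Groups do not overlap when all 3 libraries of a diet lay above all 3 of the other. Hepatocyte genes were abundant in all 6 libraries. Alb, which encodes albumin, was at 55909, 65689.5 and 56809.5 CPM in CDAHFD and 94114, 61552 and 95246 CPM in ND livers. In all, 11 of 16 hepatocyte markers fell while 0 rose. Of 20 mesothelial, adipocyte, pancreas and muscle markers, 6 passed the filter on low counts, of which 2 rose and 1 fell, and their summed level was 213 to 622 CPM. Most of that level was Krt18, a keratin that hepatocytes and ducts also carry. The adipocyte gene Adipoq had 8 counts, Pnlip of the pancreas and Plin1 of adipocytes 0 counts, and Ckm of muscle 1 count, each summed over the 6 libraries. Cela1, a pancreatic elastase gene, had more counts and fell, at 10, 12.7 and 12.8 CPM in CDAHFD and 44.4, 17.9 and 37.5 CPM in ND livers (log2 fold change -1.49 ± 0.32, adjusted p = 0.012). Cidec, which rose, is described with the lipid genes. A fall of a hepatocyte gene or a rise of a marker of another cell type in whole tissue does not separate a change in the number of cells from a change in RNA per cell; the 2 cannot be told apart here.

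The main axis of variation separated the diets: the leading principal component, with 74.9% of the variance, placed the 3 CDAHFD libraries at -80.9 to -66.8 and the 3 ND libraries at 57.1 to 84.3. The second component held 12.5% and ran within the ND group, from 51.4 in ND replicate 1 to -49.9 in ND replicate 2. The CDAHFD livers resembled each other more than the ND livers did: the median SD of log2 CPM over genes was 0.16 within CDAHFD and 0.29 within ND, and 74.1% of the 13319 genes tested had the larger SD in ND. Of these genes 20.1% rose and 16.5% fell (27.9% had all 3 CDAHFD libraries above all 3 ND libraries and 25.2% the reverse), which is the background for every count of list members below, and the median log2 fold change over all of them was -0.01. By the looser rule of an unadjusted p under 0.05 and a change of at least 2-fold, 17.9% were higher and 7.67% lower. Rises were larger than falls: 571 genes rose at least 8-fold and 92 fell at least 8-fold. The falls were the less stable side of the comparison, and leaving out CDAHFD replicate 1, 2 or 3 or ND replicate 3 lowered their number from 2204 to 1435, 1230, 1241 or 1369. With library sizes left unscaled the median gene shifted to 0.59, and 6994 genes rose against 614 that fell; changes are reported here relative to the median gene. Most genes given with values were the members of their list with the smallest p; the others were chosen after their values were seen.

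**Figure D1:**
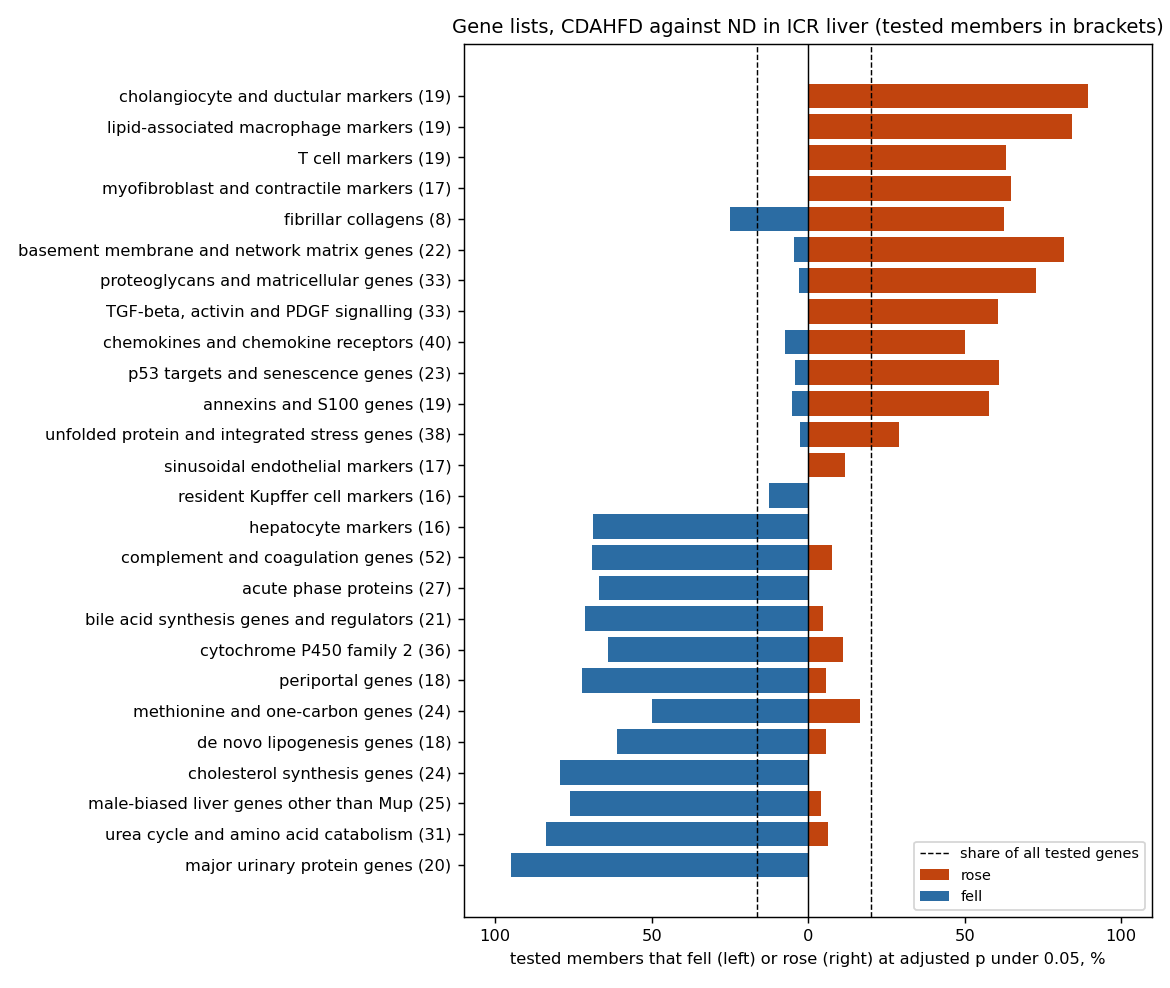
Share of the tested members of 26 gene lists that rose (bars to the right) or fell (bars to the left) in CDAHFD-fed ICR mice at an adjusted p under 0.05, in percent, with the number of tested members in brackets; dashed lines mark the shares over all genes tested, 20.1% and 16.5%. Duct markers rose in 89.5% of the members tested and major urinary protein genes fell in 19 of 20.

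The nutrients that the diet lacked are handled by a small set of hepatocyte enzymes, and the methylation cycle was lower as a group. Of 24 methionine and one-carbon genes tested, 12 fell and 4 rose, with a median log2 fold change of -1.14. Ahcy, which hydrolyses the S-adenosylhomocysteine left by methylation reactions, was at 81.5, 105 and 97.6 CPM in CDAHFD and 454, 482 and 478 CPM in ND livers (log2 fold change -2.32 ± 0.14, adjusted p = 0.00024). Gnmt, the enzyme that disposes of surplus S-adenosylmethionine, was at 101, 117 and 118 CPM in CDAHFD and 851, 643 and 894 CPM in ND livers (log2 fold change -2.83 ± 0.18, adjusted p = 0.00025). In each of these genes the lowest ND library was more than 4-fold above the highest CDAHFD library. Mat1a, which makes S-adenosylmethionine in hepatocytes, fell with a wide spread among the ND mice, at 859, 1137 and 1382 CPM in CDAHFD and 2348, 7476 and 4284 CPM in ND livers (log2 fold change -2.06 ± 0.44, adjusted p = 0.011). Bhmt, which remethylates homocysteine with betaine derived from choline, was at 1664, 923 and 861 CPM in CDAHFD and 6120.0, 2257 and 4592 CPM in ND livers (log2 fold change -1.91 ± 0.44, adjusted p = 0.014), a call lost without CDAHFD replicate 2 or 3. Cth, which makes cysteine from cystathionine, fell by 1.99 ± 0.21 on the log2 scale. The members that rose do other work: Mthfd1l and Mthfd2 belong to mitochondrial folate metabolism, Mat2a encodes the form of the synthetase found outside hepatocytes, and Gatm makes the precursor of creatine. The call for Mat2a was lost without CDAHFD replicate 2, and that for Gatm without CDAHFD replicate 1 or 3 or ND replicate 1 or 3. Mthfd1l went from 0.682, 0.962 and 0.969 CPM in the ND libraries to 7.54, 9.41 and 7.33 CPM in the CDAHFD libraries (log2 fold change 3.21 ± 0.26, adjusted p = 0.00047).

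Among the genes that turn choline into phosphatidylcholine, the share that fell was above the background and the share that rose was not. Of 22 tested, 4 rose (18.2%, against 20.1% of all genes) and 7 fell (31.8%, against 16.5%). The median log2 fold change was -0.25. With library sizes left unscaled the balance turned, as 8 rose and 3 fell at a median of 0.36. Gpcpd1, which breaks down glycerophosphocholine and so returns choline, was at 29.5, 34.6 and 45.5 CPM in CDAHFD and 154, 432 and 413 CPM in ND livers (log2 fold change -3.19 ± 0.41, adjusted p = 0.0018). Pemt, the methyltransferase of the alternative route, was at 117, 125 and 124 CPM in CDAHFD and 235, 153 and 191 CPM in ND livers and fell by 0.66 ± 0.17 on the log2 scale (adjusted p = 0.020), which was lost without any 1 CDAHFD library or ND replicate 3. Slc44a4, of the choline transporter-like family, was nearly silent in ND livers at 0.341, 0.214 and 0.269 CPM and reached 6.33, 7.16 and 7.01 CPM in CDAHFD livers (log2 fold change 4.61 ± 0.28, adjusted p = 0.00024). The other 3 that rose, Lpcat1, Lpcat2 and Lpcat4, encode acyltransferases that rebuild phosphatidylcholine from its lysophospholipid, at log2 fold changes of 1.96, 1.89 and 1.98. Leaving out CDAHFD replicate 1 or 2 or ND replicate 3, the number of choline genes that fell was 4.

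Cholesterol synthesis fell nearly throughout. Of 24 genes tested, 19 fell and 0 rose, and the median log2 fold change was -1.34. Its enzymes turn acetyl-CoA into cholesterol under control of the transcription factor SREBP-2, which acts together with the CCAAT-binding factor NF-Y. Hsd17b7, a reductase of the late pathway, was at 29.2, 34.5 and 32.4 CPM in CDAHFD and 127, 134 and 208 CPM in ND livers (log2 fold change -2.29 ± 0.21, adjusted p = 0.00065). Tm7sf2, a sterol reductase, was at 9.09, 19.6 and 19.3 CPM in CDAHFD and 154, 64.1 and 121 CPM in ND livers (log2 fold change -2.82 ± 0.41, adjusted p = 0.0029). For Ebp, a sterol isomerase, the values were 99.2, 116 and 107 CPM in CDAHFD and 284, 206 and 249 CPM in ND livers (log2 fold change -1.20 ± 0.15, adjusted p = 0.0017). All 3 genes had non-overlapping groups, and CDAHFD replicate 1 was the lowest library in each. Over the whole list the mean difference from the gene means was -1.28 in this library, -0.42 and -0.43 in the other CDAHFD libraries and 1.02, 0.03 and 1.08 in ND replicates 1, 2 and 3. The number of cholesterol genes that fell was between 9 and 12 without any single library other than ND replicate 2, and 21 without ND replicate 2.

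Promoter windows from RefSeq (build GRCm38.p6, 250 bases before to 50 bases after each transcription start) were available for 16 of the 24 cholesterol genes. The motif CCAAT, searched on both strands, stood in 15 of the 16, of which 13 fell. Over all 27025 genes with a window, 41.1% held it. It was not particular to genes that fell. Among unfolded protein and integrated stress genes it stood in 26 of 34, of which 6 rose and 0 fell. An SREBP element, written TCACNCCAC, was found in 1 of the 16, against 1.44% of all genes. The windows of the 3 genes described above are shown because they carry the motif in a list whose called members all fell; capitals mark CCAAT or its reverse complement ATTGG, and a match is a description of the letters only. Hsd17b7 lies on the minus strand at chr1:169969156-169969455, Tm7sf2 on the minus strand at chr19:6067801-6068100, and Ebp on the minus strand at chrX:8193463-8193762; each sequence reads 5′ to 3′ along the gene.
Hsd17b7: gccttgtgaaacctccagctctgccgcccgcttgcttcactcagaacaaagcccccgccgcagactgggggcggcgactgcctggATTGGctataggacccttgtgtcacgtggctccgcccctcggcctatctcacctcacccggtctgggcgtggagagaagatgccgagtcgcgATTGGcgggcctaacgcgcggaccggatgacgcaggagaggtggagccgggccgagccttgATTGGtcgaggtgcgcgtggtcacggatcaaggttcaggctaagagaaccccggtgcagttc
Tm7sf2: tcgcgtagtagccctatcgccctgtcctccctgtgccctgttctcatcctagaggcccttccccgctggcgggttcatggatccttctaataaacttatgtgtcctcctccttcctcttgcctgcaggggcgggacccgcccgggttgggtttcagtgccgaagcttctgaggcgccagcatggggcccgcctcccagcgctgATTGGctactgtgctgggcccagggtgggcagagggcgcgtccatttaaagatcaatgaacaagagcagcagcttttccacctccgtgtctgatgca
Ebp: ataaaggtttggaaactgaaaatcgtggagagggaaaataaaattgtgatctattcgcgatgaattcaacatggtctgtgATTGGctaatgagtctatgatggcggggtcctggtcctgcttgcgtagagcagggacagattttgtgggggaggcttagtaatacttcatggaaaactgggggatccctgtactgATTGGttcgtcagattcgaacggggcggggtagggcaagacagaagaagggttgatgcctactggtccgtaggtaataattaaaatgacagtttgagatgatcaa
The Hsd17b7 window held 3 matches, the Ebp window 2 and the Tm7sf2 window 1, the last starting 47 bases before the transcription start.

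Fatty acid synthesis was also lower. Of 18 de novo lipogenesis genes, 11 fell and 1 rose (6 to 8 fell without any 1 CDAHFD library and 7 without ND replicate 3). The median log2 fold change was -0.87. Unscaled library sizes gave 5 falls and 4 rises, at a median of -0.27. Scd1, the hepatocyte stearoyl-CoA desaturase, was at 221, 33.5 and 46.9 CPM in CDAHFD and 13603, 2728 and 4874 CPM in ND livers (log2 fold change -6.14 ± 1.05, adjusted p = 0.0051). Its ND values differed widely between mice, and the highest CDAHFD library was still more than 10-fold below the lowest ND library. Scd2, the desaturase of other tissues and of immature liver, was the member that rose, at 40.6, 35.7 and 38.9 CPM in CDAHFD and 7.41, 16.6 and 7.81 CPM in ND livers (log2 fold change 1.86 ± 0.31, adjusted p = 0.0048). Acacb, whose product makes malonyl-CoA at mitochondria, was at 15.5, 23.8 and 25.9 CPM in CDAHFD and 91.3, 198 and 136 CPM in ND livers (log2 fold change -2.71 ± 0.33, adjusted p = 0.0015). Of 23 fatty acid uptake genes tested, 8 fell (34.8%) and 5 rose (21.7%), the rises close to the background share of 20.1%. With library sizes left unscaled, 7 rose and 5 fell. Cd36, a scavenger receptor that imports fatty acids and is also carried by macrophages, was at 267, 512 and 624 CPM in CDAHFD and 12.3, 14.4 and 12 CPM in ND livers (log2 fold change 5.18 ± 0.35, adjusted p = 0.00029). Slc27a5 and Slc27a2, the acyl-CoA synthetases of hepatocytes, fell by 2.29 ± 0.18 and 1.62 ± 0.21 on the log2 scale. The lipid droplet protein gene Cidec was at 67.6, 41.2 and 51.4 CPM in CDAHFD and 9.65, 8.49 and 6.89 CPM in ND livers (log2 fold change 2.68 ± 0.23, adjusted p = 0.00051). It was 1 of only 2 rises (10.5%) among 19 lipid droplet and lipolysis genes tested, while 6 fell (31.6%). The median log2 fold change of that list was -0.23. Without any 1 CDAHFD library or ND replicate 3, 3 or 4 fell. Unscaled library sizes gave 7 rises and 2 falls. Among 33 genes of fatty acid oxidation and ketogenesis, 11 fell and 5 rose, the rises (15.2%) below the background share of 20.1%. Their median log2 fold change was -0.44. With library sizes left unscaled it was 0.17, and 10 rose and 2 fell. Without any 1 of the CDAHFD libraries or ND replicate 3, 6 or 7 of the oxidation genes fell, and 3 rose without CDAHFD replicate 3 and 2 without ND replicate 3.

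Bile acid synthesis fell along its length. Of 21 genes, 15 fell and 1 rose, with a median log2 fold change of -1.13. Cyp7a1, the rate-limiting enzyme of the classical pathway, was at 55.3, 77 and 15.5 CPM in CDAHFD and 409, 166 and 502 CPM in ND livers (log2 fold change -2.87 ± 0.64, adjusted p = 0.013). Cyp7b1, of the alternative pathway, was at 102, 141 and 80.8 CPM in CDAHFD and 988, 1804 and 2044 CPM in ND livers (log2 fold change -3.90 ± 0.36, adjusted p = 0.00064). For Cyp8b1, which commits intermediates to cholic acid, the values were 95.2, 129 and 81.1 CPM in CDAHFD and 656, 677 and 1104 CPM in ND livers (log2 fold change -3.0 ± 0.29, adjusted p = 0.00068). CDAHFD replicate 3 was the lowest library for Cyp7a1, Cyp7b1 and Cyp8b1, and their groups did not overlap. Cyp2c70, which makes the muricholic acids particular to mice, varied little within each group, at 404, 420.2 and 382 CPM in CDAHFD and 1669.5, 1660.0 and 1634 CPM in ND livers (log2 fold change -2.04 ± 0.15, adjusted p = 0.00038). The member that rose was Cyp39a1, an oxysterol hydroxylase, from 1.02, 4.38 and 2.37 CPM in ND to 31.9, 28.2 and 30.3 CPM in CDAHFD (log2 fold change 3.55 ± 0.45, adjusted p = 0.0017). Of 23 bile and organic anion transporters, 12 fell and 5 rose, at a median log2 fold change of -0.49. The balance depended on the scaling, as unscaled library sizes gave 8 rises and 7 falls at a median of 0.12. Slco1a1, an uptake carrier of the hepatocyte's blood side, fell by 2.81 ± 0.27 on the log2 scale. Abcb1a, an efflux pump, was at 13.6, 9.0 and 10.7 CPM in CDAHFD and 1.22, 1.55 and 0.969 CPM in ND livers (log2 fold change 3.15 ± 0.27, adjusted p = 0.00053). Without CDAHFD replicate 3 or ND replicate 3, 3 of the transporters rose.

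Genes that male and female mouse livers express at different levels under the pulsatile or continuous pattern of growth hormone stood among the largest falls. Of 20 major urinary protein (Mup) genes, which encode pheromone carriers secreted mainly by males, 19 fell and 0 rose, with a median log2 fold change of -4.72. Their summed level was 1467, 2199 and 2096 CPM in the CDAHFD libraries against 30860, 27882 and 34388 CPM in the ND libraries. Mup21 was at 26.6, 34.1 and 43.3 CPM in CDAHFD and 1958, 1443 and 1638 CPM in ND livers (log2 fold change -5.60 ± 0.27, adjusted p = 0.00017). The Mup copies are nearly identical in sequence and reads that match several copies may have been split or dropped in counting, which the sources do not give, so the split between single Mup genes is uncertain, as it is among the Cyp2c, Cyp2b and Cyp3a genes. Of 25 other male-biased genes, 19 fell and 1 rose. Susd4, a complement regulator, was at 1.79, 0.888 and 1.28 CPM in CDAHFD and 94.6, 70.4 and 123 CPM in ND livers (log2 fold change -6.18 ± 0.34, adjusted p = 0.00019). The female-biased list did not move as a mirror image: 9 of 23 rose and 4 fell, with a median log2 fold change of 0.01. Cyp2a4 and Cyp2b9, P450 genes of female liver, rose with log2 fold changes of 4.86 ± 0.53 and 4.68 ± 0.63. In the same list Prlr, the prolactin receptor, was at 13.3, 29 and 20.3 CPM in CDAHFD and 251, 233 and 283 CPM in ND livers (log2 fold change -3.62 ± 0.29, adjusted p = 0.00049). Atp6v0d2, which rose, is also a macrophage gene. In the growth hormone pathway, 10 of 24 genes fell and 3 rose, yet the median log2 fold change was 0.17. Unscaled library sizes gave 7 rises and 4 falls, at a median of 0.77. Igf1, the circulating effector of the pathway, was at 523, 616 and 579 CPM in CDAHFD and 1508, 1237 and 1384 CPM in ND livers (log2 fold change -1.26 ± 0.16, adjusted p = 0.0018). Igfals, which carries Igf1 in plasma, fell by 1.34 ± 0.17 on the log2 scale. The rises in that pathway numbered 5 without ND replicate 1 or 2.

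**Figure D2:**
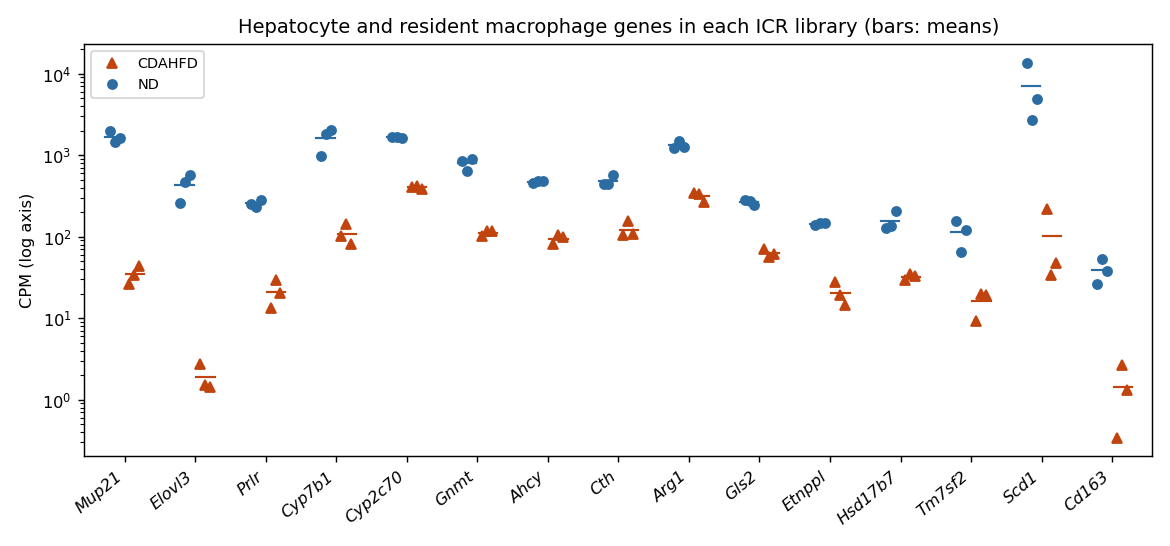
CPM on a log axis of 15 hepatocyte and resident macrophage genes in each of the 3 CDAHFD (triangles) and 3 ND (circles) libraries, with horizontal bars at the group means. No gene drawn has overlapping groups; Cth, the narrowest gap shown as a ratio, lies between 156 CPM in the highest CDAHFD and 442 CPM in the lowest ND library, and Mup21 between 43.3 and 1443 CPM.

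Drug and steroid metabolism followed the same direction. Of 36 Cyp2 genes, 23 fell and 4 rose. Of 23 genes of the Cyp1, Cyp3 and Cyp4 families, 13 fell and 3 rose. Of 47 conjugation enzymes, 20 fell and 4 rose. Ugt2b1, a glucuronosyltransferase, was at 232, 289 and 248 CPM in CDAHFD and 1599, 1253 and 1776 CPM in ND livers (log2 fold change -2.59 ± 0.20, adjusted p = 0.00043). Outside these families, Cyp46a1, which turns cholesterol into 24-hydroxycholesterol and is best known from neurons, went from 126, 93.1 and 102 CPM in ND livers to 1.47, 2.33 and 0.936 CPM in CDAHFD livers (log2 fold change -6.08 ± 0.35, adjusted p = 0.00019). The 4 rises among conjugation enzymes rested on single libraries, since 0 rose without CDAHFD replicate 2 or without ND replicate 3, 2 without CDAHFD replicate 1 or 3, and 8 without ND replicate 1.

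Amino acid breakdown fell almost throughout. Of 31 genes of the urea cycle and amino acid catabolism, 26 fell and 2 rose, with a median log2 fold change of -1.58. Arg1, arginase, was at 345, 329 and 265 CPM in CDAHFD and 1226, 1479 and 1252 CPM in ND livers (log2 fold change -2.08 ± 0.18, adjusted p = 0.00053). Gls2, the hepatocyte glutaminase, was at 70.7, 56.9 and 61.6 CPM in CDAHFD and 280.1, 272 and 242 CPM in ND livers (log2 fold change -2.07 ± 0.14, adjusted p = 0.00027). Hpd, of tyrosine breakdown, was at 598, 572 and 581 CPM in CDAHFD and 2053, 2246 and 2209 CPM in ND livers (log2 fold change -1.89 ± 0.16, adjusted p = 0.00050). Within the liver lobule such enzymes are concentrated around the portal tract, and the counts differed between zones: 13 of 18 periportal genes fell and 1 rose (median log2 fold change -1.84), against 9 of 22 pericentral and Wnt-responsive genes that fell and 4 that rose (median -0.45). The difference between the lists was not tested. Etnppl, a phospholyase of phosphoethanolamine found around the portal tract, was at 27.4, 19.3 and 14.6 CPM in CDAHFD and 139, 148 and 145 CPM in ND livers (log2 fold change -2.82 ± 0.23, adjusted p = 0.00050). The periportal member that rose was Cdh1, E-cadherin, which bile ducts also carry, at 229.9, 157 and 185 CPM in CDAHFD and 74.6, 43.3 and 69.6 CPM in ND livers (log2 fold change 1.61 ± 0.24, adjusted p = 0.0031). At the central vein, Glul, glutamine synthetase, had overlapping groups at 881, 1083 and 1134 CPM in CDAHFD and 1004, 1463 and 1416 CPM in ND livers (log2 fold change -0.33 ± 0.21, adjusted p = 0.26). Tbx3, a transcription factor of the same zone, fell, at 22.7, 22.6 and 33.4 CPM in CDAHFD and 83.1, 97.4 and 96 CPM in ND livers (log2 fold change -1.81 ± 0.18, adjusted p = 0.00080).

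Transcription factors that maintain hepatocytes moved mostly down where they were called. Of 30 tested, 14 fell, 2 rose and 14 were not called, with a median log2 fold change of -0.60. That direction depended on the scaling: with library sizes left unscaled, 5 rose and 4 fell, at a median of 0.01. Nr1h4, the bile acid receptor FXR, was at 119.5, 123 and 116 CPM in CDAHFD and 229.6, 238 and 234 CPM in ND livers (log2 fold change -0.97 ± 0.10, adjusted p = 0.0011). Hnf4a, a master regulator of the hepatocyte programme, was at 501, 655 and 648 CPM in CDAHFD and 747, 1462 and 1300.3 CPM in ND livers (log2 fold change -0.96 ± 0.27, adjusted p = 0.031), and its call was lost without any 1 library other than ND replicate 1. Without CDAHFD replicate 2 or ND replicate 3, 7 of them fell, and without CDAHFD replicate 3, 9 fell; without any 1 library 0 or 1 rose.

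Plasma proteins made by hepatocytes were lower, but the normal-diet livers differed sharply among themselves. Of 52 complement and coagulation genes, 36 fell and 4 rose (median log2 fold change -1.0), with 7 rises without ND replicate 2. F10, coagulation factor X, was at 273, 288 and 269.8 CPM in CDAHFD and 616, 599 and 670.1 CPM in ND livers (log2 fold change -1.18 ± 0.13, adjusted p = 0.0011). Masp2, a protease of the lectin pathway, was at 69.6, 72.6 and 64.1 CPM in CDAHFD and 169, 162 and 180.2 CPM in ND livers (log2 fold change -1.31 ± 0.11, adjusted p = 0.00051). Of 27 acute phase proteins, which hepatocytes secrete in response to interleukin-6, 18 fell and 0 rose (median -1.72). Fgb, the fibrinogen beta chain, was at 4602, 4714 and 5581 CPM in CDAHFD and 11683, 23421 and 15742 CPM in ND livers (log2 fold change -1.77 ± 0.34, adjusted p = 0.0076). Serum amyloid genes ranged widely: Saa2 was at 68, 83.9 and 110.3 CPM in CDAHFD and 206, 12566 and 5534 CPM in ND livers (log2 fold change -6.13 ± 1.33, adjusted p = 0.012), so that ND replicate 1 was far below ND replicates 2 and 3 yet still above all 3 CDAHFD libraries. Saa1 and Saa2 are close copies, and the division of reads between them is uncertain. Lcn2, lipocalin 2, ran from 34.7 CPM in ND replicate 1 to 2152 CPM in ND replicate 2, with the CDAHFD libraries between them at 1110.5, 1228 and 1503 CPM (log2 fold change 0.35 ± 1.06, adjusted p = 0.82). The number of acute phase genes that fell was 7, 6 or 9 without CDAHFD replicate 1, 2 or 3, 22, 15 or 11 without ND replicate 1, 2 or 3, and 3 rose without ND replicate 2.

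**Figure D3:**
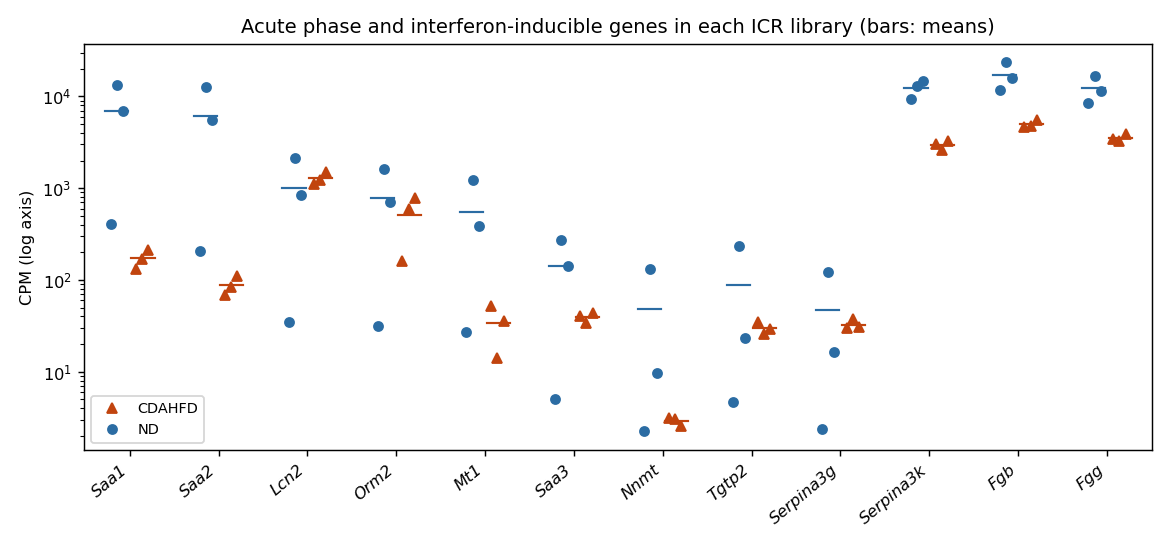
CPM on a log axis of 12 acute phase and interferon-inducible genes in each CDAHFD (triangles) and ND (circles) library, with horizontal bars at the group means. For the 9 genes on the left, ND replicate 1 is the lowest and ND replicate 2 the highest ND library, as for Saa2 at 206 and 12566 CPM, and the CDAHFD libraries of Saa2 lie between 68.0 and 110.3 CPM; Serpina3k, Fgb and Fgg have narrower ND ranges that lie above the CDAHFD libraries.

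Interferon-inducible genes carried the same contrast between ND mice. Of 37 interferon-stimulated genes, 6 rose and 2 fell. Of 34 interferon-gamma GTPase and MHC class I genes, 4 rose and 2 fell, shares below the background. The mean difference from the gene means of the interferon-gamma and MHC class I list was -1.03, 0.95 and -0.25 in ND replicates 1, 2 and 3 and lay between -0.02 and 0.21 in the CDAHFD libraries. Without ND replicate 2 the counts that rose were 20 and 14, and without ND replicate 1, 5 genes fell in each list. Samd9l and Oas2, antiviral genes, rose with non-overlapping groups: Samd9l was at 83.8, 71.8 and 67.3 CPM in CDAHFD and 16.7, 27.6 and 14 CPM in ND livers (log2 fold change 1.93 ± 0.26, adjusted p = 0.0020). MHC class II genes also varied with the library left out, with 4 of 13 risen, 10 without ND replicate 2, 1 without CDAHFD replicate 2 and 0 without ND replicate 3. Ctss, the protease that processes the class II invariant chain, was at 408, 404 and 845 CPM in CDAHFD and 32.2, 151 and 68.4 CPM in ND livers (log2 fold change 2.72 ± 0.59, adjusted p = 0.012), a call lost without ND replicate 3.

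Scar matrix rose. Fibrillar collagens form the tensile fibres of scar tissue, and 5 of 8 tested rose, at a median log2 fold change of 3.31. Col1a1 was at 368, 262 and 209.6 CPM in CDAHFD and 8.14, 5.45 and 6.35 CPM in ND livers (log2 fold change 5.39 ± 0.29, adjusted p = 0.00019). Col3a1 was at 830.0, 604 and 528 CPM in CDAHFD and 46.5, 24.6 and 17.9 CPM in ND livers (log2 fold change 4.46 ± 0.41, adjusted p = 0.00063). Col5a2, which joins the same fibres, was at 81.7, 63.5 and 53.6 CPM in CDAHFD and 3.22, 3.15 and 2.05 CPM in ND livers (log2 fold change 4.56 ± 0.25, adjusted p = 0.00019). In these 3 genes CDAHFD replicate 1 was the highest library and the lowest CDAHFD library was more than 10-fold above the highest ND library. The 2 fibrillar collagens that fell are minor ones, Col27a1 at 4.26, 2.17 and 3.34 CPM in CDAHFD and 19, 6.09 and 9.64 CPM in ND livers (log2 fold change -1.83 ± 0.45, adjusted p = 0.019) and Col11a2 at log2 fold change -0.85. Neither fell without CDAHFD replicate 2 or 3, nor Col11a2 without CDAHFD replicate 1 or ND replicate 2 or 3. Col5a3 was at 178 CPM in ND replicate 1 and at 14.2 to 27.3 CPM in the other 5 libraries. Of 22 basement membrane and network matrix genes, 18 rose and 1 fell (12 rose without ND replicate 3); Nid1, nidogen, was at 175, 172 and 150.4 CPM in CDAHFD and 18.6, 24 and 11.7 CPM in ND livers (log2 fold change 3.19 ± 0.26, adjusted p = 0.00050). Of 33 proteoglycans and matricellular genes, 24 rose and 1 fell; Tnc, tenascin C, was at 27.6, 27.3 and 24 CPM in CDAHFD and 0.585, 1.12 and 0.808 CPM in ND livers (log2 fold change 4.97 ± 0.24, adjusted p = 0.00017). Thbs1, a thrombospondin that can activate latent TGF-beta, was at 41, 36.1 and 26.3 CPM in CDAHFD and 1.85, 1.6 and 1.62 CPM in ND livers (log2 fold change 4.34 ± 0.22, adjusted p = 0.00017).

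Enzymes that finish collagen rose with it. Of 17 crosslinking and folding enzymes, 12 rose and 1 fell. Lox, lysyl oxidase, was at 29.9, 15.6 and 12.6 CPM in CDAHFD and 0.390, 0.427 and 0.215 CPM in ND livers (log2 fold change 5.79 ± 0.47, adjusted p = 0.00049). Adamts2, which trims procollagen, was at 51.8, 38.2 and 40.8 CPM in CDAHFD and 5.99, 5.18 and 3.39 CPM in ND livers (log2 fold change 3.16 ± 0.24, adjusted p = 0.00043). Of 9 protease inhibitors of the matrix tested, 5 rose and 0 fell. Timp1, a tissue inhibitor of metalloproteinases, was at 11.6, 7.88 and 8.69 CPM in CDAHFD and 0.390, 0.588 and 0 CPM in ND livers (log2 fold change 4.82 ± 0.67, adjusted p = 0.0024). Timp2, of the same family, was at 113, 83.1 and 97.9 CPM in CDAHFD and 19.1, 16 and 10.8 CPM in ND livers (log2 fold change 2.68 ± 0.23, adjusted p = 0.00055). The diets did not overlap in any of these 4 genes. Of 33 genes of TGF-beta, activin and PDGF signalling, 20 rose and 0 fell. The ligand Pdgfb, which drives stellate cell growth, was at 13.4, 10.5 and 12.4 CPM in CDAHFD and 0.634, 0.588 and 0.646 CPM in ND livers (log2 fold change 4.28 ± 0.22, adjusted p = 0.00017). Its receptor Pdgfrb, carried by stellate cells and other pericytes, was at 99.3, 69.2 and 78.2 CPM in CDAHFD and 16.4, 14.9 and 10.9 CPM in ND livers (log2 fold change 2.55 ± 0.21, adjusted p = 0.00049). The study's own qPCR panel of inflammation and fibrosis genes rose in 29 of 32 tested members; that panel was picked in the same study and is not independent evidence of direction.

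More stellate cell markers rose than fell. Of 15 quiescent stellate markers, 6 rose and 2 fell (0 fell without any 1 CDAHFD library or without ND replicate 2). These falls, 13.3% of the list, were below the background share of 16.5%. Of 17 myofibroblast and contractile markers, 11 rose and 0 fell. Lrat, which stores vitamin A in quiescent stellate cells, was at 45.9, 39.5 and 47.7 CPM in CDAHFD and 23.8, 14.1 and 10.1 CPM in ND livers (log2 fold change 1.47 ± 0.30, adjusted p = 0.0094). Hgf, the hepatocyte growth factor made by these cells, was at 28.4, 26.4 and 25.8 CPM in CDAHFD and 4.73, 11 and 3.34 CPM in ND livers (log2 fold change 2.08 ± 0.41, adjusted p = 0.0082). Sinusoidal endothelial markers gave 2 rises among 17, Stab1 and Fcgr2b. There were 0 rises without CDAHFD replicate 1 or 3 or ND replicate 3, 1 without CDAHFD replicate 2 and 4 without ND replicate 2. Of 16 markers of capillary and vascular endothelium, 9 rose and 0 fell. The difference between the endothelial lists was not tested, and with library size only 10 of 17 and 15 of 16 rose. Vwf, von Willebrand factor, was at 13.2, 16.8 and 16.7 CPM in CDAHFD and 5.51, 5.77 and 2.8 CPM in ND livers (log2 fold change 1.72 ± 0.29, adjusted p = 0.0045).

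**Figure D4:**
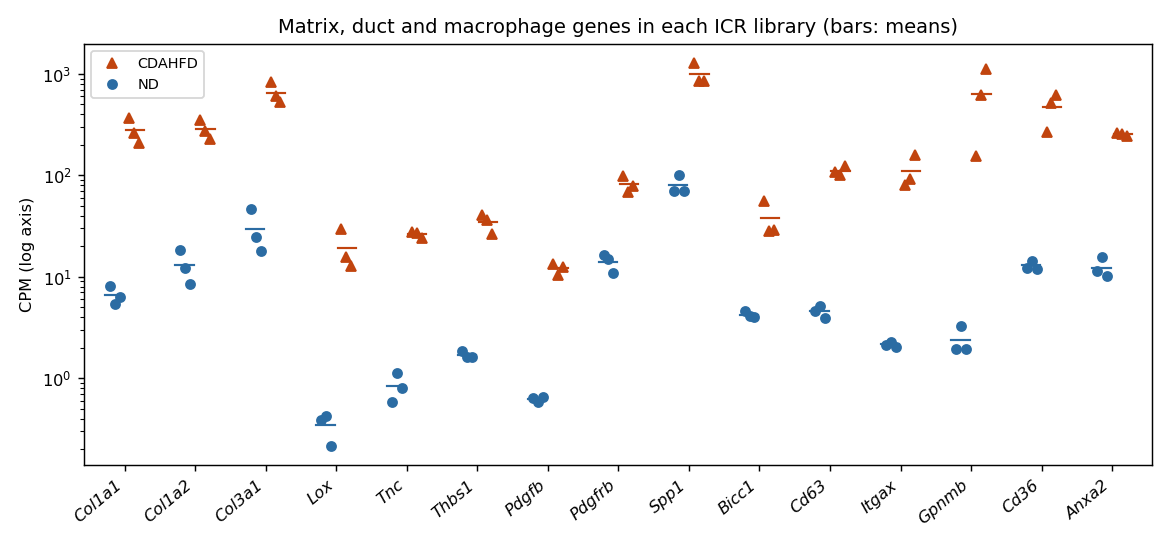
CPM on a log axis of 15 matrix, duct and macrophage genes in each of the 3 CDAHFD (triangles) and 3 ND (circles) libraries, with horizontal bars at the group means. The groups do not overlap in any gene drawn; the CDAHFD libraries agree closely for Anxa2 (247 to 261 CPM) and spread most for Gpnmb, from 156 CPM in replicate 1 to 1120 CPM in replicate 3.

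Matrix-degrading enzymes rose in 10 of 15 tested members and fell in 1. Mmp12, macrophage elastase, was at 157, 846 and 1177 CPM in CDAHFD and 5.7, 6.78 and 3.98 CPM in ND livers (log2 fold change 7.05 ± 0.82, adjusted p = 0.0013). Mmp13, an interstitial collagenase, was at 6.65, 30.8 and 24.6 CPM in CDAHFD and 0.439, 0.321 and 0.431 CPM in ND livers (log2 fold change 5.69 ± 0.67, adjusted p = 0.0014). In both genes CDAHFD replicate 1 was the lowest CDAHFD library, the reverse of the collagens. Mmp14, a membrane-bound activator of other members, was steadier at 108, 102 and 109 CPM in CDAHFD and 38.2, 43.7 and 47.3 CPM in ND livers (log2 fold change 1.30 ± 0.12, adjusted p = 0.00060). The promoter windows of Mmp12 and Mmp13 are shown because each holds an AP-1 site, TGANTCA on either strand, shortly before the transcription start; 3 of the 11 metalloproteinase genes with a window held it, against 8.97% of all genes. The reference holds 2 windows for Mmp12, of which the one with the match is given. Both lie on the plus strand, Mmp12 at chr9:7347124-7347423 and Mmp13 at chr9:7272264-7272563 (GRCm38.p6, RefSeq), and capitals mark the match, which starts 44 and 35 bases before the start.
Mmp12: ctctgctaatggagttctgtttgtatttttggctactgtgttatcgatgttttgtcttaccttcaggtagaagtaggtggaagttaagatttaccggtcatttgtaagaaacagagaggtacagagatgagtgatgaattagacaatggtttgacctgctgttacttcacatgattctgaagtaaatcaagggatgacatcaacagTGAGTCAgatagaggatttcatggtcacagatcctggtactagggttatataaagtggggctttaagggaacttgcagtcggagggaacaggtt
Mmp13: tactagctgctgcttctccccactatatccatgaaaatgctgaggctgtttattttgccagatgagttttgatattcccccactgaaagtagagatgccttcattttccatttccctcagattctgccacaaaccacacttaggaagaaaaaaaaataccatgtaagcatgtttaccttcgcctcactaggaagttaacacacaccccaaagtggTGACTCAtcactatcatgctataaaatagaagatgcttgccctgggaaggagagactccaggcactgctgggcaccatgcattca

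Bile duct genes rose almost without exception. Of 19 cholangiocyte and ductular markers, 17 rose and 0 fell, with a median log2 fold change of 3.37. Spp1, osteopontin, which duct cells and lipid-laden macrophages both make, was at 1278, 843 and 851 CPM in CDAHFD and 70.6, 99.9 and 70.8 CPM in ND livers (log2 fold change 3.62 ± 0.26, adjusted p = 0.00034). Bicc1, an RNA-binding protein of duct epithelium, was at 56.2, 28 and 28.7 CPM in CDAHFD and 4.58, 4.11 and 3.98 CPM in ND livers (log2 fold change 3.15 ± 0.31, adjusted p = 0.00076). Tspan8, a tetraspanin of epithelia, was at 52.5, 20.8 and 16.9 CPM in CDAHFD and 0.634, 1.34 and 0.862 CPM in ND livers (log2 fold change 4.99 ± 0.56, adjusted p = 0.0012). The rise was largest in CDAHFD replicate 1: over the list the mean difference from the gene means was 2.45 in this library and 1.06 and 0.96 in the other 2, against -1.64, -1.36 and -1.47 in the ND libraries. The same library was the highest for Col1a1 and Col3a1 and the lowest CDAHFD library for Gpnmb, Mmp12 and Mmp13. Without CDAHFD replicate 1, 15 duct markers rose, and over the 6 fits that each left out 1 library the count ran from 12 to 17.

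**Figure D5:**
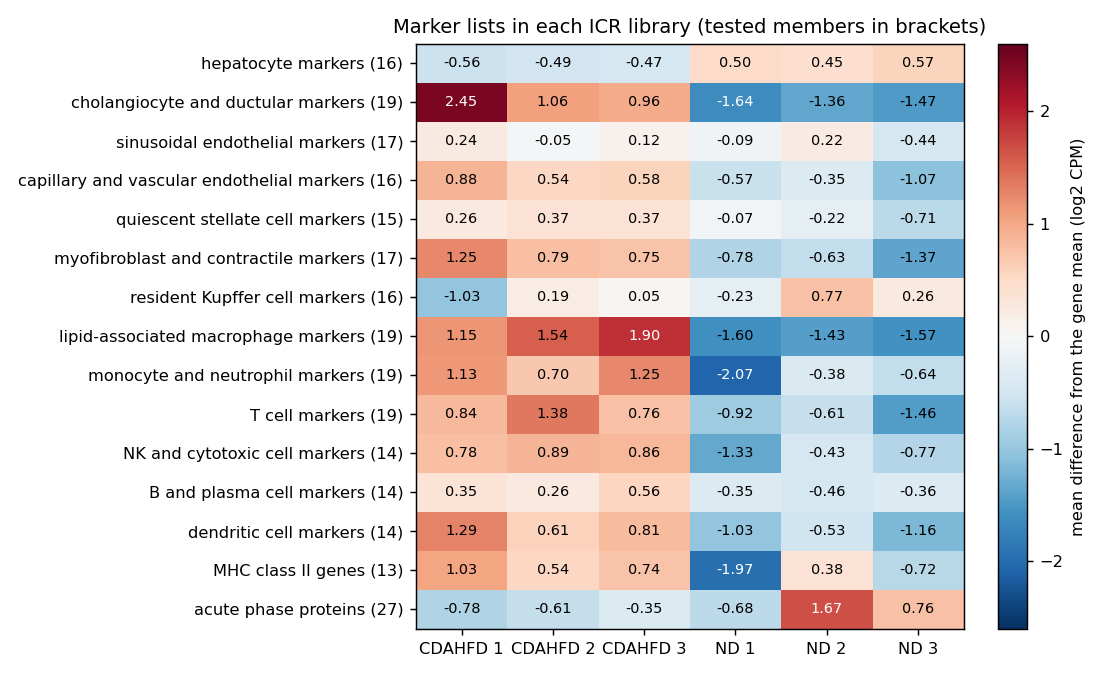
Mean difference of each marker list from the mean of its genes over the 6 libraries, in log2 CPM, for each CDAHFD and ND library (red higher, blue lower), with tested members in brackets. Duct markers run from -1.64 to 2.45, resident Kupffer cell markers are lowest in CDAHFD replicate 1 at -1.03, and acute phase proteins are highest in ND replicate 2 at 1.67.

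Macrophage marker lists differed in their counts. The liver's resident macrophages, the Kupffer cells, are set apart from lipid-associated macrophages, which arise largely from recruited monocytes and gather around dying fat-laden hepatocytes. Of 19 lipid-associated macrophage markers, 16 rose and 0 fell (median log2 fold change 3.62), and of 16 resident Kupffer cell markers, 0 rose and 2 fell (median -0.18). Trem2, the lipid-sensing receptor that defines the former, was at 26.8, 35.2 and 61 CPM in CDAHFD and 1.71, 0.427 and 1.29 CPM in ND livers (log2 fold change 5.15 ± 0.52, adjusted p = 0.00080). Cd63, a tetraspanin of lysosomes, was at 107, 101 and 124 CPM in CDAHFD and 4.58, 5.13 and 3.93 CPM in ND livers (log2 fold change 4.60 ± 0.16, adjusted p = 7.5e-05). Itgax, which encodes CD11c, was at 80.6, 91.5 and 157 CPM in CDAHFD and 2.14, 2.3 and 2.05 CPM in ND livers (log2 fold change 5.66 ± 0.31, adjusted p = 0.00019). In all 3 genes the groups were far apart and the highest CDAHFD library was replicate 3. Fabp5, a fatty acid-binding protein counted among the same markers, was at 25.7, 72.4 and 109 CPM in CDAHFD and 175, 162 and 139 CPM in ND livers (log2 fold change -1.20 ± 0.45, adjusted p = 0.076). Apoe, which hepatocytes make in bulk, was at 8778, 8772 and 8977 CPM in CDAHFD and 15260.5, 9572 and 11901 CPM in ND livers (log2 fold change -0.47 ± 0.28, adjusted p = 0.22).

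Among Kupffer genes, Clec4f, a lectin restricted to these cells in mice, was at 29.2, 129 and 111 CPM in CDAHFD and 99.5, 181 and 143 CPM in ND livers (log2 fold change -0.65 ± 0.51, adjusted p = 0.35). Timd4, a receptor for dying cells, was at 4.36, 12.5 and 11.4 CPM in CDAHFD and 9.89, 31.9 and 14.1 CPM in ND livers (log2 fold change -0.98 ± 0.53, adjusted p = 0.18). For Vsig4 the values were 16.8, 54.4 and 45.7 CPM in CDAHFD and 30.8, 58.7 and 44.3 CPM in ND livers (log2 fold change -0.19 ± 0.43, adjusted p = 0.75). These 3 markers had overlapping groups, and CDAHFD replicate 1 held the lowest value of all 6 libraries in each. Cd163, the haemoglobin scavenger receptor, did fall, from 26.5, 53.5 and 37.5 CPM in ND to 0.341, 2.64 and 1.31 CPM in CDAHFD (log2 fold change -4.78 ± 0.65, adjusted p = 0.0023). C6, the other gene that fell, encodes a complement component that hepatocytes also make. Csf1r, the receptor on which macrophages depend, had 0 counts in all 6 libraries, so it carries no information here.

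Recruitment signals rose broadly. Of 40 chemokines and chemokine receptors, 20 rose and 3 fell (median log2 fold change 2.16), with 1 fall without CDAHFD replicate 2 or 3 or ND replicate 3. Ccr2, the receptor that brings monocytes from blood, was at 86.4, 37.3 and 38.3 CPM in CDAHFD and 1.85, 7.05 and 3.39 CPM in ND livers (log2 fold change 3.72 ± 0.56, adjusted p = 0.0032). Cx3cr1, carried by monocyte-derived cells, was at 75.8, 35.3 and 49.2 CPM in CDAHFD and 2.83, 2.51 and 2.32 CPM in ND livers (log2 fold change 4.38 ± 0.32, adjusted p = 0.00038). Its ligand Cx3cl1 was at 21.9, 11.4 and 9.36 CPM in CDAHFD and 0.487, 0.641 and 0.646 CPM in ND livers (log2 fold change 4.58 ± 0.42, adjusted p = 0.00060). These 3 genes had non-overlapping groups and were highest in CDAHFD replicate 1. Ackr2, a decoy receptor that removes inflammatory chemokines, fell, at 2.55, 3.41 and 2.38 CPM in CDAHFD and 8.77, 10.8 and 13.1 CPM in ND livers (log2 fold change -1.97 ± 0.24, adjusted p = 0.0016). Lymphocyte markers were low in CPM and higher in CDAHFD livers. Of 19 T cell markers, 12 rose and 0 fell (7 without CDAHFD replicate 2 and 8 without ND replicate 3). Of 14 NK and cytotoxic markers, 7 rose and 0 fell (4 without ND replicate 3). Lck, the kinase next to the T cell receptor, was at 4.44, 4.61 and 4.23 CPM in CDAHFD and 0.341, 1.07 and 0.969 CPM in ND livers (log2 fold change 2.48 ± 0.41, adjusted p = 0.0044). Prf1, perforin, was at 2.18, 3.08 and 2.35 CPM in CDAHFD and 0.487, 0.801 and 0.646 CPM in ND livers (log2 fold change 1.97 ± 0.34, adjusted p = 0.0050). Of 14 B and plasma cell markers 2 rose and 0 fell, the rises below the background share. Their median log2 fold change was 0.87, and 6 of the 14 were higher in CDAHFD without overlap, against 27.9% of all genes. Unscaled library sizes gave 9 rises. Dendritic cell markers rose in 9 of 14; Flt3, the receptor that sustains their development, was at 3.15, 1.5 and 2.46 CPM in CDAHFD and 0.195, 0.214 and 0.323 CPM in ND livers (log2 fold change 3.26 ± 0.45, adjusted p = 0.0024). Monocyte and neutrophil markers rose in 8 of 19, and in 4 or 5 without any 1 CDAHFD library. Of 11 mast cell, platelet and erythroid markers, 4 fell and 1 rose (2 fell without CDAHFD replicate 2). Hba-a1, an alpha globin gene with a near-identical copy, so that its own count is uncertain, was at 21.2, 26.5 and 41.7 CPM in CDAHFD and 220.0, 139 and 76.6 CPM in ND livers (log2 fold change -2.29 ± 0.42, adjusted p = 0.0064). Blood left in the tissue was not measured, and its part in this was not tested.

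Stress genes rose in part. In the unfolded protein and integrated stress list, 11 of 38 genes rose and 1 fell. The integrated stress response acts through the transcription factor ATF4 on genes of amino acid supply, whereas the unfolded protein response raises chaperones of the endoplasmic reticulum. Atf3, an ATF4 target and stress-inducible factor, was at 41.9, 64.1 and 73 CPM in CDAHFD and 1.61, 2.35 and 1.56 CPM in ND livers (log2 fold change 5.02 ± 0.29, adjusted p = 0.00020). Nupr1, a stress-induced chromatin protein, was at 10.1, 7.88 and 15.1 CPM in CDAHFD and 0.292, 1.28 and 0.646 CPM in ND livers (log2 fold change 3.90 ± 0.51, adjusted p = 0.0019). Asns, asparagine synthetase, was at 12.3, 15.9 and 24.4 CPM in CDAHFD and 0.390, 3.74 and 1.62 CPM in ND livers (log2 fold change 3.20 ± 0.66, adjusted p = 0.0100). Slc7a11, the cystine importer, was at 1.71, 11.2 and 15.2 CPM in CDAHFD and 0, 0.321 and 0 CPM in ND livers (log2 fold change 6.43 ± 1.23, adjusted p = 0.0075). These 4 genes had non-overlapping groups, and CDAHFD replicate 3 was the highest library in each. Fgf21, a hormone that fasted or stressed liver releases, was at 119, 67.4 and 40.2 CPM in CDAHFD and 1.9, 3.42 and 13.8 CPM in ND livers (log2 fold change 3.57 ± 0.77, adjusted p = 0.011). Hspa5, the main chaperone of the endoplasmic reticulum, had overlapping groups at 1237, 1837 and 1879 CPM in CDAHFD and 1378, 1850.4 and 1054 CPM in ND livers (log2 fold change 0.21 ± 0.27, adjusted p = 0.58). The transcript of Atf4 itself was at 131, 147 and 119.7 CPM in CDAHFD and 130.2, 113 and 131 CPM in ND livers (log2 fold change 0.09 ± 0.13, adjusted p = 0.63).

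Promoter motifs were compared with these calls. Windows were available for 34 of the 38 genes. The amino acid response element bound by ATF4, written TGATGNAA and searched on both strands, stood in 9 of the 34, against 4.51% of all genes, and of these 9 genes 6 rose and 0 fell. The endoplasmic reticulum stress element, CCAAT and CCACG spaced by 9 bases, stood in 8 of the 34, against 0.137% of all genes, and of these 8 genes 0 rose and 0 fell. The list was made of genes known for these responses, so shares above those of all genes are not independent evidence. Calls of genes with either element were not compared by a test. In all, 17 motifs were searched across 11 lists, and those described here were chosen after the matches and the gene values were seen. The windows of Atf3 and Nupr1, which hold the ATF4 element and are among the 4 members with the smallest p, are shown because both rose; both lie on the minus strand, Atf3 at chr1:191183284-191183583 and Nupr1 at chr7:126625421-126625720 (GRCm38.p6, RefSeq). Capitals mark the match, which reads TTGCATCA, the reverse complement, in both genes, starting 110 bases before the transcription start in each.
Atf3: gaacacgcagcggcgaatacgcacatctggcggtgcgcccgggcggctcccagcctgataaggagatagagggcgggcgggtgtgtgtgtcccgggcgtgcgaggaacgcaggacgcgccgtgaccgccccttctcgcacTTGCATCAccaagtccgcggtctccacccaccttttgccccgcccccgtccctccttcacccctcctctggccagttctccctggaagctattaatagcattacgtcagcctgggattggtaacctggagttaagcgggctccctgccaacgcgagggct
Nupr1: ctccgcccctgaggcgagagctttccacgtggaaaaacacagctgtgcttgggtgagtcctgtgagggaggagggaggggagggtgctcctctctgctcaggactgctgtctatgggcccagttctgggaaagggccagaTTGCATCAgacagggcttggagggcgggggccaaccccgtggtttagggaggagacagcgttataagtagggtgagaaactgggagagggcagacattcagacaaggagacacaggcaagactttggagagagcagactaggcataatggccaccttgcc

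Damage-response genes rose. Of 23 p53 targets and senescence genes, 14 rose and 1 fell (median log2 fold change 1.10). Phlda3, a p53-induced inhibitor of AKT, was at 6.51, 6.77 and 6.15 CPM in CDAHFD and 0.390, 0.321 and 0.323 CPM in ND livers (log2 fold change 4.21 ± 0.26, adjusted p = 0.00024). Eda2r, a p53-induced receptor of the TNF family, was at 12.5, 12.4 and 9.47 CPM in CDAHFD and 1.07, 0.962 and 1.4 CPM in ND livers (log2 fold change 3.32 ± 0.24, adjusted p = 0.00039). Ccnd1, cyclin D1, was at 124, 124 and 153 CPM in CDAHFD and 18.2, 17.3 and 25.6 CPM in ND livers (log2 fold change 2.72 ± 0.19, adjusted p = 0.00033). In the cell cycle list as a whole 10 of 45 genes rose, close to the background share of 20.1%. That count was 6 or 5 without CDAHFD replicate 1 or 2, and 5 without ND replicate 3. The median log2 fold change of the list was 0.70, against -0.01 over all genes. Unscaled library sizes gave 36 rises and 1 fall. E2f8, an atypical E2F repressor linked to hepatocyte polyploidy, fell, at 20.2, 13.3 and 13.7 CPM in CDAHFD and 53.5, 68.8 and 57.8 CPM in ND livers (log2 fold change -1.93 ± 0.20, adjusted p = 0.00093). The annexin Anxa2, which binds membranes and is raised in injured epithelium, was at 261, 254 and 247 CPM in CDAHFD and 11.3, 15.6 and 10.1 CPM in ND livers (log2 fold change 4.36 ± 0.20, adjusted p = 0.00016), with little spread among the CDAHFD libraries. Of 19 annexin and S100 genes, 11 rose and 1 fell. NRF2 antioxidant targets rose in 11 of 30 and fell in 3 (6 rose without ND replicate 3 and 7 without CDAHFD replicate 2, and 1 fell without any 1 of the CDAHFD libraries or ND replicate 3); Srxn1, sulfiredoxin, was at 109, 150.5 and 154 CPM in CDAHFD and 42.4, 67.6 and 54.7 CPM in ND livers (log2 fold change 1.33 ± 0.21, adjusted p = 0.0039). Of 44 lysosome genes, 18 rose and 3 fell, and 11 rose without ND replicate 3 and 6 fell without ND replicate 1.

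Changes of single hormone, iron, clock and retinoid genes were as follows. Dio1, the deiodinase that activates thyroid hormone, was at 30.3, 88 and 54 CPM in CDAHFD and 1.71, 4.33 and 4.63 CPM in ND livers (log2 fold change 4.02 ± 0.52, adjusted p = 0.0018). The receptor gene Thrb fell, at 29, 29.8 and 32 CPM in CDAHFD and 64.8, 62.1 and 73.8 CPM in ND livers (log2 fold change -1.14 ± 0.11, adjusted p = 0.00077). Tfr2, a hepatocyte iron sensor, was at 134, 158 and 154 CPM in CDAHFD and 463, 573 and 599 CPM in ND livers (log2 fold change -1.88 ± 0.16, adjusted p = 0.00050). The diets did not overlap in any of these 3 genes. Hlf, a clock output factor, was at 23, 28.3 and 23.2 CPM in CDAHFD and 64.3, 77.6 and 79.3 CPM in ND livers (log2 fold change -1.57 ± 0.14, adjusted p = 0.00060). Of the list, 5 of 18 circadian clock genes fell while 1 rose (3 fell without CDAHFD replicate 2 or 3 or ND replicate 3). Dhrs9, a retinol dehydrogenase and the male-biased gene that rose, went from 0.390, 1.5 and 0.700 CPM in ND livers to 34, 21.3 and 34.2 CPM in CDAHFD livers (log2 fold change 5.12 ± 0.45, adjusted p = 0.00055). Ucp2, a mitochondrial carrier low in healthy hepatocytes, was at 131, 149 and 175 CPM in CDAHFD and 22.7, 57.1 and 33.5 CPM in ND livers (log2 fold change 2.0 ± 0.33, adjusted p = 0.0042).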

How the data were processed

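Liver RNA of 12 mice was sequenced, and the 6 ICR libraries (3 per diet) were used here. Per the labels, mRNA was purified and the libraries were made strand-specific with dUTP; the study's methods name rRNA depletion instead. The submitters' processing notes list fastp 0.23.4, HISAT2 2.2.1, featureCounts 2.0.6, edgeR 4.0.16 and the build mm39; the methods name another mouse build, the annotation and the handling of reads that match several genes are not given in the sources used here, and no coordinates of that build are printed. The authors deposited raw counts per gene beside normalized columns and columns of their own comparisons (fold changes and p-values), and only the counts were used. After 3 repeated lines were dropped, 17710 genes remained.

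Genes were filtered with filterByExpr (minimum count 10, minimum total 15), which left 13319, and tested with edgeR 4.0.16 (TMM scaling, quasi-likelihood F test, Benjamini-Hochberg adjustment over all genes tested) in R 4.3.3. The SE is the log2 fold change divided by the square root of F. Each library was taken as 1 mouse, so p-values measure the spread between these mice. The procedure was run on simulated data with less spread than the real data and few changed genes, equally many up and down. Those data held no scaling difference between the diets, so they did not test the scaling. The members of the 66 gene lists were chosen with earlier results of these data known. Candidates for naming were the 15 largest rises and 15 largest falls with a mean of at least 5 CPM and no overlap between groups. So were the 4 members lowest in p in every list. Not all candidates are described above, among them the largest rise (Cyp3a57, log2 fold change 8.24) and the largest fall (Moxd1, -9.39). The following were named after their values were seen: Alb, Apoe, Asns, Atf4, Bhmt, Ccr2, Cdh1, Ces2h, Clec4f, Col11a2, Col27a1, Col5a3, Cyp2b9, Cyp39a1, Cyp7a1, Cyp8b1, Fabp5, Fgf21, Gatm, Glul, Hnf4a, Hspa5, Lcn2, Lpcat1, Lpcat2, Lpcat4, Lrat, Mat1a, Mat2a, Mthfd2, Pemt, Saa1, Slc7a11, Timd4, Trem2 and Vsig4. Alternatives were other scalings and filters, DESeq2 1.42.0, the likelihood ratio test, a replicate block, thinned counts, each library left out, and 1 fit of all 12 libraries.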

Additional observations from a re-analysis of the deposited data

How the results depend on the processing

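The number of genes that rose, 2679, was 6994 with library size only, and ran from 1835 to 2940 when each library was left out in turn. The number that fell, 2204, was 614 with library size only and ran from 1230 to 2524 when each was left out. At an unadjusted p under 0.05 and a change of at least 2-fold, 2382 genes were higher and 1021 lower, against 3949 and 374 with library size only. Another scaling, 2 other count filters, DESeq2, the likelihood ratio test, thinned counts and the fit of 12 libraries each stayed within 1.5 times of these counts. The mice were treated as unpaired. Same-numbered libraries deviated from their group means with correlations of 0.17, -0.04 and 0.04 across genes, and different-numbered libraries with -0.16 to 0.13. Deviations of the 3 libraries of a diet sum to 0, so these values cannot settle whether the numbers pair mice. A fit with the replicate number as a block gave 2496 rises and 1910 falls, and 12 cholesterol synthesis genes fell in it. With library size only, the log2 fold changes of 4 uncalled genes given here turned positive: 0.11 for Alb, 0.13 for Apoe, 0.29 for Glul and 0.41 for Vsig4. The falls of Pemt, Hnf4a, Col11a2, Col27a1 and Cela1 lost their call with library size only, at -0.06, -0.34, -0.24, -1.23 and -0.89, while Atf4 and Hspa5 passed the threshold, at 0.69 and 0.81. Fabp5, lower in CDAHFD, passed it with DESeq2 (adjusted p = 0.025). Over the fits that each left out 1 library, log2 fold changes that changed sign ran from -0.56 to 6.39 for Ces2h, -2.22 to 0.15 for Col5a3, -0.22 to 1.58 for Lcn2 and -0.51 to 0.17 for Vsig4, with Ces2h called without ND replicate 1 and Col5a3 without ND replicate 2. Low counts limit the precision of fold changes of genes near 0 CPM in ND, such as Slc7a11.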

Other observations

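Some genes differed strongly between mice on the same diet: among genes that reached 5 CPM in a library of that diet, 18 spanned at least 30-fold between its libraries (0.1 CPM added to each value), 5 of them in CDAHFD and 14 in ND, 1 in both. Ces2h, a carboxylesterase gene with close copies, was at 72.4, 0.05 and 0.54 CPM in the ND libraries and 36.0, 1.17 and 37.9 CPM in the CDAHFD libraries, so that high and low mice occurred on both diets. Several genes that liver or its macrophages are known to express had almost no counts in any library: summed over the 6 libraries Csf1r had 0, Per2 1, Slc51a 1, Elovl6 5, Col4a1 6, Proc 18, Stab2 50 and Pklr 69 counts. They were not tested, and no difference in them could be detected at these counts.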
